A study of Mus musculus with 20 samples.

Results

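Nicotinamide adenine dinucleotide (NAD) is the hydride carrier of energy metabolism and the substrate that sirtuins, PARP enzymes and NAD glycohydrolases consume. Cells make it from tryptophan (Trp) through the kynurenine pathway, from nicotinic acid, from nicotinamide and from nicotinamide riboside. The routes from Trp and nicotinic acid meet at nicotinic acid mononucleotide, and those from nicotinamide and its riboside at nicotinamide mononucleotide. In the gut the routes draw on food, on host turnover and on bacteria, which can convert nicotinamide to nicotinic acid. The transcripts of 10 genes of NAD synthesis and use were followed here in the terminal ileum of mice fed with or without Trp. They were taken by name as a list: Qprt, Nampt, Naprt, Nadsyn1, Nmnat1, Nmnat3, Nmrk1, Nnmt, Cd38 and Nadk. All 10 were among the 35204 genes of the deposited table, and all 10 were among the 16306 genes tested.

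RNA was sequenced from ileum tissue of 20 female C57BL/6 mice that were 7 weeks old when the diets began. The 4 groups of 5 mice were specific pathogen-free (SPF) mice on the control amino acid diet (CD), SPF mice on the same diet without Trp (TDD), and mice on either diet that also drank a cocktail of ampicillin, vancomycin, metronidazole, neomycin and gentamycin (CD+ABX and TDD+ABX). ABX began before the change to TDD. The antibiotic water also held sucrose, which the study does not describe for the water of SPF mice. Effects of ABX below therefore cannot be told apart from those of the sucrose. Every mouse, the CD group included, ate a purified amino acid diet, and feeding lasted 3 weeks. The study reports that SPF mice lost much weight on TDD and that ABX-treated mice on TDD lost far less. The part of weight loss in the values below was not tested. The tissue was a whole slice of the bowel, so that epithelium, lamina propria and muscle were sequenced together, and fewer cells of a type and less RNA per cell cannot be told apart in any value below. All 10 enterocyte markers examined were detected, as were those of muscle, stroma, lymphocytes and other wall cells. Estimated counts per mouse summed to between 36676963 and 58662617. Levels are given as counts-per-million (CPM) after TMM scaling, or as transcripts-per-million (TPM) where genes are set against each other, because only TPM takes transcript length into account. A gene passed a comparison when its Benjamini-Hochberg adjusted p-value (q) was under 0.05 in edgeR's quasi-likelihood test over all genes tested.

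The genes spanned a wide range of levels. Naprt, which makes nicotinic acid mononucleotide, stood highest with a mean of 134.7 TPM over the 20 mice (109.2 to 155.1). That mean was above those of 94.4% of the genes tested. Nadk, the cytosolic NAD kinase that makes NADP, followed at 84.3 TPM (60.5 to 102.4), and Nadsyn1, which amidates the nicotinic acid dinucleotide to NAD, at 54.1 TPM (48.7 to 62.2). Nampt, the rate-limiting enzyme of nicotinamide salvage, was at 28.5 TPM (17.7 to 42.3). This order is that of the sum of all transcripts of a gene. By the leading coding transcript Nadsyn1 was below Nampt, with 19.1 TPM for Nadsyn1-201 and 22.9 TPM for Nampt-201.

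Lower in the order of these sums came Cd38, an ectoenzyme that cleaves NAD, at 23.9 TPM (19.4 to 33.2). Its leading coding transcript Cd38-201 had 23.8 TPM, above the 22.9 TPM of Nampt-201. Nmnat3 and Nmnat1 join either mononucleotide to an adenylyl group, in mitochondria and in the nucleus. They had means of 11.7 and 9.92 TPM, and the nicotinamide riboside kinase Nmrk1 had 5.42 TPM. At the bottom were Nnmt, at 0.704 TPM (0.259 to 1.8), and Qprt, at 0.451 TPM (0.161 to 0.721). Nnmt methylates nicotinamide and so removes it from salvage. Qprt turns quinolinate of the kynurenine pathway into nicotinic acid mononucleotide. Qprt is the only enzyme of the list that belongs to the route from Trp alone, and it had 12 to 54 counts per mouse. Nnmt had 7 to 55 counts per mouse, so that single mice of both genes are imprecise.

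**Figure D1:**
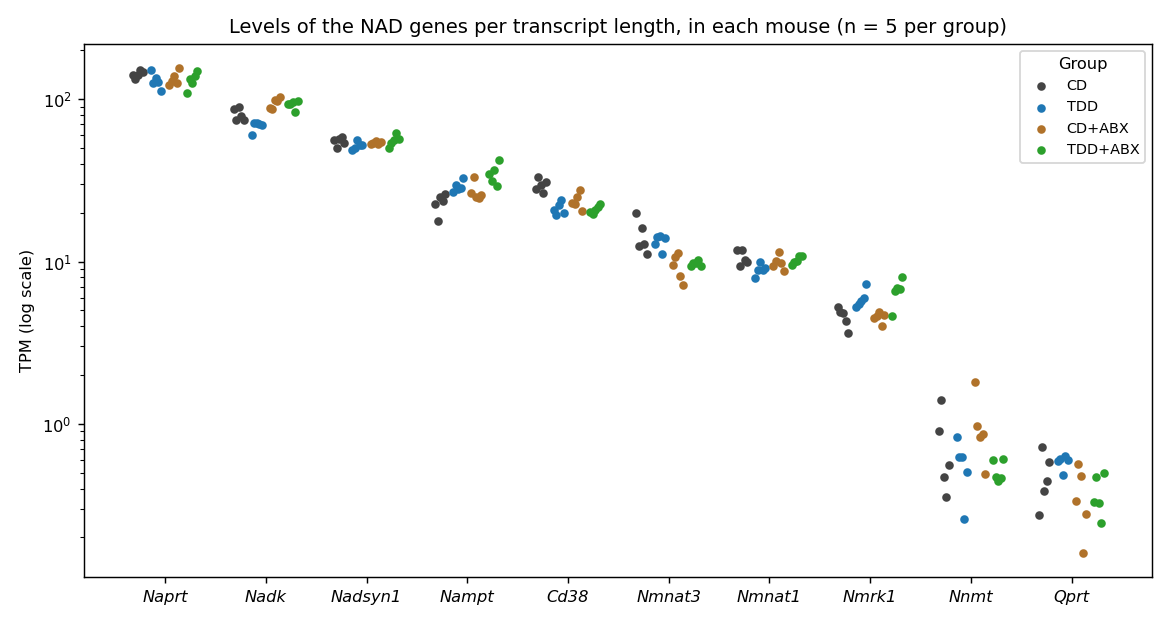
TPM of each NAD gene in each of the 20 mice, on a logarithmic axis, with genes ordered by their mean and points coloured by group. Naprt lies highest at 109.2 to 155.1 TPM and Qprt lowest at 0.161 to 0.721 TPM; the ranges over the 20 mice do not overlap between Naprt and Nadk, between Nadsyn1 and Nampt, or between Nmrk1 and Nnmt, and overlap between all other neighbours.

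The first comparison asked how the removal of dietary Trp changed these genes in SPF mice. TDD feeding raised 2 of the 10 genes, Nampt and Nmrk1, and lowered 1, Cd38, whereas the other 7 did not pass. Over all genes tested 14.4% passed this comparison, 6.65% with a higher and 7.71% with a lower level. The 5 CD mice and the 5 TDD mice did not overlap in CPM for the same 3 genes, against 9.58% of all genes. With the fold change limit of 2 that the study used, none of the 10 was called, against 1.83% of all genes. The median log2 fold change of the 10 genes was -0.06, against 0.01 over all genes.

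Nampt (ENSMUSG00000020572.8, chromosome 12 of GRCm38, 32819545 to 32853349) measured 62.0, 53.5, 66.4, 69.7 and 77.0 CPM in the 5 CD mice and 84.6, 85.2, 80.8, 82.9 and 94.4 CPM in the 5 TDD mice. The lowest TDD mouse was above the highest CD mouse. The group means were 65.7 ± 8.74 and 85.6 ± 5.22 CPM (SD, n = 5), which differ by 0.38 on the log2 scale with a standard error of 0.09 (q = 0.0106, edgeR). The call held whichever of the 20 mice was left out, with q no higher than 0.0325. Nampt overlaps the non-coding gene Gdap10 on the same strand.

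Nmrk1 (ENSMUSG00000037847.14, chromosome 19, 18631950 to 18652428) is expressed at a lower level, with 5.23, 5.0, 5.01, 4.38 and 4.04 CPM in CD mice and 6.2, 5.89, 5.84, 6.28 and 7.34 CPM in TDD mice. Here too no TDD mouse was as low as any CD mouse. The means were 4.73 ± 0.5 and 6.31 ± 0.607 CPM (SD, n = 5), and the log2 fold change was 0.42 with a standard error of 0.12 (q = 0.0213, edgeR). This call was lost without CD mouse 4 (q = 0.0506), CD mouse 5 (q = 0.0729) or TDD mouse 5 (q = 0.0663, all edgeR), although the log2 fold change stayed at 0.35 or more. It was also lost when TPM were tested with limma, at q of 0.065 with a pseudocount of 1 and 0.0637 with a pseudocount of 0.1.

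Cd38 (ENSMUSG00000029084.5, chromosome 5, 43868553 to 43912375) fell on TDD. It measured 67.5, 78.1, 71.5, 67.5 and 77.4 CPM in CD mice, and 55.5, 49.3, 54.8, 62.2 and 50.0 CPM in TDD mice. Every CD mouse was thus above every TDD mouse. The means were 72.4 ± 5.14 and 54.4 ± 5.2 CPM (SD, n = 5), and the log2 fold change was -0.41 with a standard error of 0.07 (q = 0.000819, edgeR). The call held in all 20 fits that left out a mouse. The annotation places a sense intronic and an antisense non-coding gene within Cd38, and whether the reads were assigned by strand is not given in the sources used here.

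Of the genes that did not pass, Nadk had 167.3 ± 12.8 CPM in CD and 147.4 ± 3.57 CPM in TDD mice (SD, n = 5; log2 fold change -0.18, q = 0.0725, edgeR), and Nmnat1 had 15.0 ± 1.38 and 13.3 ± 0.483 CPM (-0.17, q = 0.0996, edgeR). Without CD mouse 2 both passed, Nadk at q = 0.0237 and Nmnat1 at q = 0.00936, and Nadk also passed without CD+ABX mouse 5 (q = 0.0375, all edgeR). Qprt had 0.641 ± 0.179 and 0.888 ± 0.115 CPM (SD, n = 5), which differ by 0.46 on the log2 scale, with a 95% interval that ran from -0.08 to 1.0. For Naprt, Nadsyn1 and Nmnat3 the log2 fold changes were -0.04, -0.06 and -0.06, with 95% intervals from -0.24 to 0.16, from -0.18 to 0.07 and from -0.32 to 0.2. Nnmt was at 0.434 ± 0.198 and 0.372 ± 0.149 CPM (SD, n = 5), a change of -0.21 on the log2 scale with a wide 95% interval from -0.99 to 0.56.

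**Figure D2:**
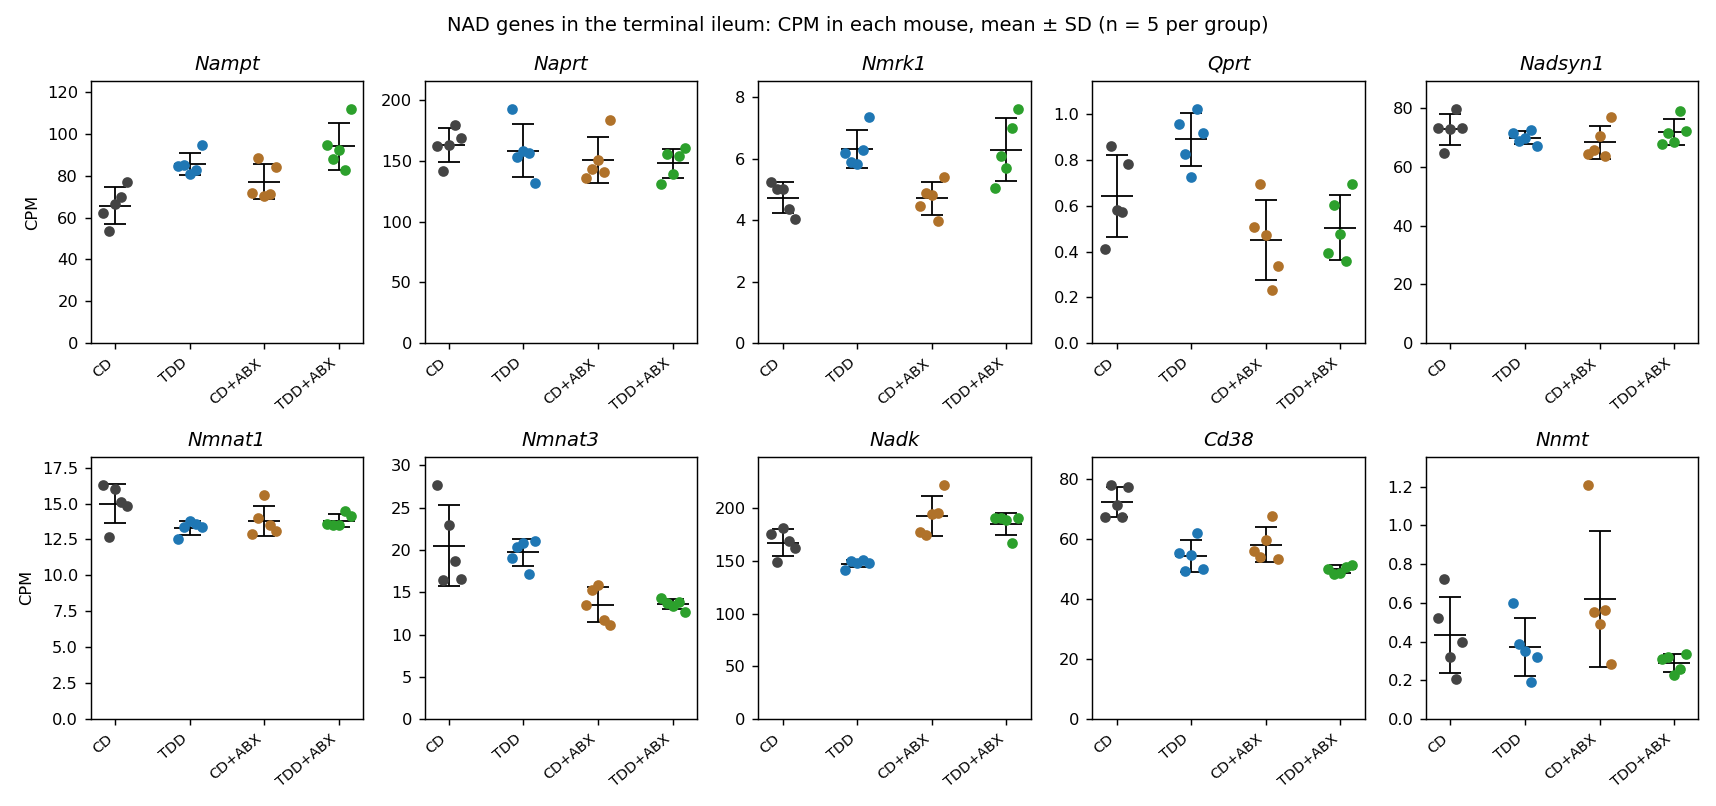
CPM of each NAD gene in each mouse (points) for the 4 groups, with the mean and SD of 5 mice (bars) on axes that start at 0. On TDD without ABX, all 5 mice lie above all 5 CD mice for Nampt and Nmrk1 and below them for Cd38; with ABX, both diet groups lie below both SPF groups for Nmnat3.

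Other transcripts of the tissue moved with the same diet contrast. Clock genes were examined because Nampt transcription is known to be rhythmic. The study does not state the hour of tissue collection for any group. A difference in that hour between groups cannot be told apart from diet or ABX for these genes or for Nampt. In SPF mice 11 of 19 clock genes were higher and 2 were lower, and the median of the 19 log2 fold changes was 0.82. Per2, a repressor of the clock, rose from 14.7 ± 2.34 to 49.5 ± 7.11 CPM, and Per3 from 8.35 ± 2.18 to 39.3 ± 9.61 CPM (SD, n = 5). The clock output factors Hlf and Tef rose by 2.81 and 2.01 on the log2 scale, and the clock repressor Ciart by 4.0 (q from 7.25e-05 to 0.000283 for these 5, edgeR). Macrophage and dendritic cell markers were lower for 3 of 8 genes, with a level summed over the 8 genes of 131.2 to 169.4 CPM in CD and 78.1 to 124.1 CPM in TDD mice. Fibroblast markers were lower for 3 of 8 genes (540.6 to 789.2 and 405.0 to 501.9 CPM), and plasma cell markers higher for 3 of 6 genes (1505.5 to 2582.9 and 1643.8 to 3422.8 CPM). Of 6 endothelial markers 1 was lower. B cell markers, of which 0 of 8 passed (0 with an unadjusted p under 0.05, edgeR), summed to 8.63 to 132.9 CPM in CD and 7.18 to 205.1 CPM in TDD mice, with medians of 11.1 and 137.7 CPM. Of the 10 enterocyte markers and the 8 T cell markers none passed (edgeR), and 1 and 2 of them had an unadjusted p under 0.05. Enterocyte markers summed to 16084.4 to 39308.7 CPM in CD and 30365.5 to 38930.5 CPM in TDD mice, with medians of 34699.9 and 34479.7 CPM. T cell markers summed to 37.6 to 106.9 CPM in CD and 27.2 to 47.6 CPM in TDD mice, with medians of 41.4 and 38.1 CPM. No marker list was at 0 in any group, and the part of these shifts in the levels of Nampt, Nmrk1 and Cd38 was not tested.

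The bases before the RefSeq transcription start of the 3 genes that passed are shown because they moved in the same comparison. They are the 250 bases upstream of the start in RefSeq on GRCm38.p6, where 8 of the 10 genes had an entry, and are written 5′ to 3′ on the plus strand, which is the strand of all 3 genes. Capitals mark GCGTG on either strand, the core bound by the aryl hydrocarbon receptor (AhR), for which Trp metabolites are ligands. These starts lie downstream of the first base of each gene in GENCODE given above, so that the windows of Nampt and Cd38 fall within the GENCODE gene and that of Nmrk1 partly so. The E-box CACGTG of clock factors was searched on both strands as well.
Nampt, chr12:32820085-32820334: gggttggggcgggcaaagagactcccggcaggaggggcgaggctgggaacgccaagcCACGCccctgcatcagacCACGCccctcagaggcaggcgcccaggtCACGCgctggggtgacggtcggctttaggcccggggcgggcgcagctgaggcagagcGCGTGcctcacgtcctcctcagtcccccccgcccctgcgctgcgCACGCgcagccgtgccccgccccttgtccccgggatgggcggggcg
Nmrk1, chr19:18631766-18632015: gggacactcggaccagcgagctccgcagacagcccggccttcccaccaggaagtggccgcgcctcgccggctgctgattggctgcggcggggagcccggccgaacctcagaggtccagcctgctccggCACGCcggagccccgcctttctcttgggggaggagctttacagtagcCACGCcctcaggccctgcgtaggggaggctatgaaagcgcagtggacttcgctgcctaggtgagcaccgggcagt
Cd38, chr5:43868559-43868808: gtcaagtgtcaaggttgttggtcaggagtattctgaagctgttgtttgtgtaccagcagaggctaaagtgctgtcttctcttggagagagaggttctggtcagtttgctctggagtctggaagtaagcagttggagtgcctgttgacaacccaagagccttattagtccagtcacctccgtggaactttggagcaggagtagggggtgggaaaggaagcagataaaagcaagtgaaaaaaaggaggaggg

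GCGTG was found 5 times before Nampt, 2 times before Nmrk1 and 0 times before Cd38, and no match overlapped another. At least 1 match occurs in 28.2% of 32851 promoter windows of this length. None of the 3 windows held CACGTG, which occurs in 6.02% of all windows. The windows differed in base composition, with 75.6% G and C for Nampt, 69.2% for Nmrk1 and 48.8% for Cd38, where the median of all windows was 52.4%. Among the other genes, GCGTG stood 1 time before Nmnat3 and 3 times before the downstream start of Nadk, which also held 1 CACGTG. These matches are letters only and say nothing of binding.

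The second comparison asked the same of mice without an intact microbiota. In ABX-treated mice 0 of the 10 genes passed with edgeR, against 1.64% of all genes (0.626% higher and 1.02% lower). With an unadjusted p under 0.05 there were 4, and DESeq2 called 1 and limma-voom 0. No gene was called with the fold change limit, against 0.307% of all genes. The groups of 5 did not overlap for 1 gene, Cd38, against 4.78% of all genes.

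Nampt had 71.8, 88.2, 70.3, 71.0 and 84.0 CPM in CD+ABX mice and 94.7, 87.7, 92.4, 82.8 and 111.7 CPM in TDD+ABX mice. Both ranges overlapped, with means of 77.0 ± 8.37 and 93.9 ± 11.0 CPM (SD, n = 5; q = 0.142, edgeR), and they differed by 0.28 on the log2 scale with a standard error of 0.09. Nmrk1 had 4.45, 4.89, 4.81, 3.97 and 5.41 CPM in CD+ABX mice and 5.06, 6.09, 5.71, 6.99 and 7.61 CPM in TDD+ABX mice. Only the lowest TDD+ABX mouse fell within the range of CD+ABX mice. The log2 fold change of Nmrk1 was 0.42 with a standard error of 0.12, beside 0.42 in SPF mice, and it did not pass with edgeR (q = 0.0754) but did with DESeq2 (q = 0.0203).

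Cd38 had 56.1, 54.0, 59.6, 67.8 and 53.3 CPM in CD+ABX mice and 50.2, 48.5, 48.6, 50.8 and 51.4 CPM in TDD+ABX mice. All TDD+ABX mice were below all CD+ABX mice, but the difference of -0.22 on the log2 scale did not pass (q = 0.131, edgeR). Nnmt was at 0.621 ± 0.35 CPM in CD+ABX and 0.29 ± 0.0454 CPM in TDD+ABX mice (SD, n = 5; log2 fold change -1.09, q = 0.158, edgeR), and CD+ABX mouse 1 stood apart at 1.21 CPM. Without that mouse the log2 fold change was -0.7. The other 6 genes had log2 fold changes between -0.06 and 0.17.

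In the same comparison 5 of 19 clock genes were higher and 1 was lower, 3 of 8 fibroblast markers and 1 of 6 endothelial markers were lower, and no other marker list had a gene that passed (edgeR). B cell markers did not pass in any comparison, but here 6 of 8 had an unadjusted p under 0.05 (edgeR). All 8 were higher, with a median log2 fold change of 2.66. Their summed level was 5.23 to 11.9 CPM in CD+ABX and 6.07 to 143.5 CPM in TDD+ABX mice, with medians of 8.42 and 17.2 CPM. The part of these levels in those of the NAD genes was not tested.

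Whether ABX altered the response to the diet was tested as the interaction of diet and ABX. It passed for 0 of the 10 genes with edgeR, against 0.0368% of all genes (0.0245% with the fold change limit), and 0 had an unadjusted p under 0.05. DESeq2 and limma-voom also called 0. For Nampt the interaction was -0.1 on the log2 scale with a 95% interval from -0.37 to 0.18, for Nmrk1 it was 0.0 (-0.34 to 0.34) and for Cd38 it was 0.19 (-0.02 to 0.4). The diet effects of these 3 genes in SPF and in ABX-treated mice were therefore not shown to differ. The lower bounds of -0.37 and -0.34 for Nampt and Nmrk1 lie beside diet effects of 0.38 and 0.42 in SPF mice.

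**Figure D3:**
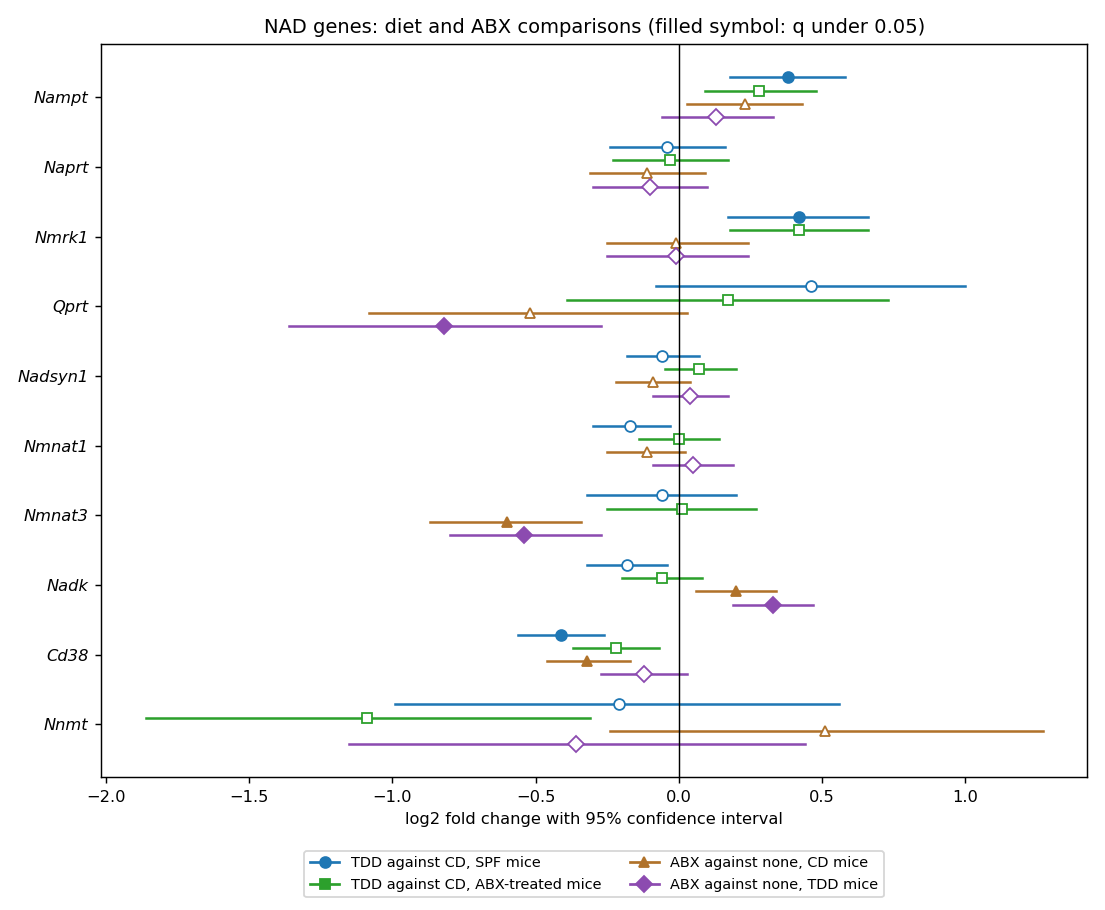
Log2 fold change of each NAD gene (symbols) with its 95% confidence interval (lines) in the 2 diet and 2 ABX comparisons; filled symbols have q under 0.05. Nampt and Nmrk1 lie to the right of 0 in both diet comparisons and Cd38 to the left, whereas Nmnat3 lies to the left of 0 at -0.60 and -0.54 in both ABX comparisons and Nadk to the right at 0.20 and 0.33.

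The last comparisons asked what ABX did on each diet. They share no mice with each other, but each shares its groups with the diet comparisons, so the values are set side by side only. On CD, ABX lowered Nmnat3 and Cd38 and raised Nadk, 3 of 10 genes, against 12.6% of all genes (5.26% higher and 7.37% lower). On TDD, ABX lowered Qprt and Nmnat3 and raised Nadk, again 3 of 10, against 15.4% of all genes (7.14% higher and 8.22% lower). No gene was called with the fold change limit in either, against 2.25% of all genes on CD and 1.63% on TDD. Groups did not overlap for 1 gene on CD, Nmnat3, against 9.74% of all genes, and for Qprt, Nmnat3 and Nadk on TDD, against 11.0% of all genes.

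Nmnat3 (ENSMUSG00000032456.13, chromosome 9, 98287435 to 98420438) measured 27.7, 16.5, 22.9, 18.7 and 16.6 CPM in CD mice and 13.5, 15.3, 15.8, 11.7 and 11.1 CPM in CD+ABX mice. On TDD it measured 19.1, 20.3, 20.8, 17.1 and 21.0 CPM, and in TDD+ABX mice 14.3, 13.7, 13.4, 13.8 and 12.7 CPM. Every ABX-treated mouse was below every SPF mouse, whatever the diet. The log2 fold change was -0.60 on CD (standard error 0.13, q = 0.00453) and -0.54 on TDD (standard error 0.13, q = 0.00941, both edgeR), and both calls held in all 20 fits that left out a mouse. The diet itself left Nmnat3 at 20.5 ± 4.78 and 19.7 ± 1.62 CPM in SPF mice and at 13.5 ± 2.08 and 13.6 ± 0.578 CPM in ABX-treated mice (SD, n = 5). A pseudogene, Gm28530, overlaps the gene.

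Nadk (ENSMUSG00000029063.16, chromosome 4, 155562378 to 155591001) went in the other direction. It measured 175.8, 148.5, 181.5, 168.9 and 161.8 CPM in CD mice and 177.2, 174.4, 194.0, 195.3 and 222.0 CPM in CD+ABX mice, 2 groups that overlapped. On TDD it measured 141.3, 149.4, 148.0, 150.5 and 147.9 CPM, and in TDD+ABX mice 190.1, 190.1, 188.5, 166.7 and 190.3 CPM, with no overlap. The log2 fold change was 0.33 on TDD (standard error 0.07, q = 0.00378, edgeR), a call that held in all 20 fits that left out a mouse. On CD it was 0.20 (standard error 0.07, q = 0.0498, edgeR), and this call held in only 5 of those 20 fits, namely when the mouse left out was mouse 3 of CD, 1 of TDD, 1 or 2 of CD+ABX, or 4 of TDD+ABX. In the other fits q rose to at most 0.135, without CD+ABX mouse 5, and the call was also lost in 5 of 10 other settings (q up to 0.164).

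Cd38 fell with ABX on CD, from 72.4 ± 5.14 to 58.2 ± 5.94 CPM (SD, n = 5). Only the highest CD+ABX mouse, at 67.8 CPM, reached into the range of CD mice. The log2 fold change was -0.32 with a standard error of 0.07 (q = 0.00695, edgeR). On TDD, where Cd38 was already lower, the means were 54.4 ± 5.2 and 49.9 ± 1.32 CPM (log2 fold change -0.12, q = 0.252, edgeR). The 4 groups thus ran from CD to CD+ABX, TDD and TDD+ABX in the order of their means, and the mice of neighbouring groups in this order overlapped.

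Qprt (ENSMUSG00000030674.5, chromosome 7, 127107114 to 127122226) measured 0.954, 0.825, 0.725, 1.02 and 0.918 CPM in TDD mice and 0.393, 0.601, 0.476, 0.358 and 0.694 CPM in TDD+ABX mice. All TDD+ABX mice were below all TDD mice, with means of 0.888 ± 0.115 and 0.504 ± 0.141 CPM (SD, n = 5). The log2 fold change was -0.82 with a standard error of 0.26 (q = 0.04, edgeR). At 18 to 54 counts per mouse in these 2 groups the call was fragile: it held in 10 of the 20 fits that left out a mouse, and was lost without any mouse of the TDD group, without TDD+ABX mouse 1, 2, 3 or 4 or without CD+ABX mouse 3 (q up to 0.107). On CD the means were 0.641 ± 0.179 and 0.449 ± 0.175 CPM (log2 fold change -0.52, q = 0.216, edgeR).

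Nampt with ABX on CD had a log2 fold change of 0.23 (q = 0.12, edgeR), and on TDD of 0.13 (q = 0.355, edgeR). Nmrk1 was at 4.73 ± 0.5 and 4.71 ± 0.536 CPM without and with ABX on CD, and at 6.31 ± 0.607 and 6.29 ± 1.02 CPM on TDD (SD, n = 5). Its log2 fold changes of -0.01 on both diets had 95% intervals from -0.25 to 0.24. Naprt, Nadsyn1 and Nmnat1 had log2 fold changes between -0.11 and 0.05 in both ABX comparisons. Nnmt had 0.51 on CD, with a 95% interval from -0.24 to 1.27, and -0.36 on TDD, with an interval from -1.15 to 0.44.

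Levels of some cell type markers also moved with ABX. Of 8 smooth muscle, 8 fibroblast and 7 enteric neuron and glia markers, 0 passed on either diet (edgeR). An unadjusted p under 0.05 was found for 2 fibroblast markers on CD and 1 neuron and glia marker on TDD (edgeR). T cell markers were lower for 7 of 8 genes on CD and 5 of 8 on TDD, and their summed level was 37.6 to 106.9 CPM in CD, 15.8 to 21.1 CPM in CD+ABX, 27.2 to 47.6 CPM in TDD and 15.0 to 32.9 CPM in TDD+ABX mice. Macrophage and dendritic cell markers were lower for 4 of 8 genes on CD and 1 of 8 on TDD. Of 6 plasma cell markers, 2 were lower and 1 higher on CD, and 5 were lower and 1 higher on TDD. Enterocyte markers split, with 3 of 10 higher and 2 of 10 lower on either diet. Their summed level had medians of 34699.9 CPM in CD and 23532.3 CPM in CD+ABX mice. On TDD the medians were 34479.7 CPM without and 31172.8 CPM with ABX, and ranges overlapped on either diet. Of 19 clock genes, 5 were higher on CD and 0 passed on TDD (3 with an unadjusted p under 0.05, edgeR). The calls on CD held in 20 (Per2), 17 (Cry2 and Ciart), 14 (Hlf) and 13 (Per3) of the 20 fits that left out a mouse. CD+ABX mouse 4 was within or below the range of CD mice for Per2, Ciart, Hlf and Per3. Of 6 endothelial markers 2 were lower on TDD and 0 passed on CD. No B cell marker passed (edgeR), but all 8 were lower on either diet. Their median log2 fold changes were -2.85 on CD and -1.55 on TDD. An unadjusted p under 0.05 was found for 8 of 8 on CD and 0 of 8 on TDD (edgeR). No adipocyte marker passed either (edgeR), with median log2 fold changes of 0.14 on CD and -2.69 on TDD. The part of these shifts in the levels of Nmnat3, Cd38, Qprt and Nadk was not tested.

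The genes around this list, taken from 6 further lists of the pathway, place the 10 genes in context. Of 63 such genes 56 were tested, and 22 passed at least 1 comparison, the interaction included. Of all genes tested 30.2% passed at least 1 comparison, and the counts per list over the comparisons are to be read against that share. Another list held genes of the kynurenine pathway before Qprt, with Kyat1 and Kyat3, which lie on a side branch to kynurenic acid. Of its 8 tested genes 5 passed in at least 1 comparison, Kyat1 and Kyat3 among them, against 30.2% of all genes. Ido1, which opens the pathway, fell on TDD from 13.0 ± 7.54 to 4.84 ± 1.77 CPM in SPF mice (log2 fold change -1.42, q = 0.0157). In ABX-treated mice it fell from 9.68 ± 3.28 to 3.27 ± 0.782 CPM (-1.57, q = 0.0415, both edgeR). The aminotransferase Kyat3, which diverts kynurenine to kynurenic acid, rose on TDD from 7.76 ± 0.688 to 10.5 ± 0.845 CPM (q = 0.00373; SD, n = 5), and by 0.37 on the log2 scale in ABX-treated mice (q = 0.0471, both edgeR). Its relative Kyat1 passed in ABX-treated mice (0.64, q = 0.0415), beside 0.34 in SPF mice (q = 0.157, edgeR). With ABX, the diet calls of Ido1, Kyat1 and Kyat3 held in only 7, 7 and 5 of the 20 fits that left out a mouse, and in SPF mice that of Ido1 was lost without CD mouse 3 (q = 0.0532, edgeR).

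ABX lowered kynureninase, Kynu, which stands on the branch to quinolinate, from 2.63 ± 0.109 to 1.82 ± 0.172 CPM on CD (log2 fold change -0.54, q = 0.0281). On TDD it went from 2.24 ± 0.483 to 1.45 ± 0.328 CPM (-0.63, q = 0.0119, both edgeR). On TDD it also lowered Afmid, the formamidase that makes kynurenine, by 0.34 on the log2 scale (q = 0.0191, edgeR). Both therefore fell beside Qprt in the same comparison. Kynu on CD was called in 16 and on TDD in 20 of the 20 fits that left out a mouse, and Afmid in 18.

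Among 11 tested genes of precursor uptake and handling, 6 passed at least 1 comparison, against the same 30.2%. Slc22a13, an organic anion transporter that carries nicotinate, had the lowest fold changes of all genes named here: it fell with ABX from 3.36 ± 2.16 to 0.497 ± 0.164 CPM on CD (log2 fold change -2.74, standard error 0.48, q = 0.00134) and from 4.48 ± 1.72 to 0.484 ± 0.336 CPM on TDD (-3.2, standard error 0.48, q = 0.000639, edgeR). In each diet every ABX-treated mouse was below every SPF mouse. The purine nucleoside phosphorylases Pnp and Pnp2, which can also split nicotinamide riboside, fell on TDD in both settings, with log2 fold changes of -0.95 and -1.19 in SPF mice (q = 5.25e-05 and 9.21e-05) and of -0.47 and -0.79 in ABX-treated mice (q = 0.0495 and 0.0152, edgeR). They are near-identical copies, and reads could have been divided between them. The call of Pnp in ABX-treated mice held in 4 of 20 fits that left out a mouse, and all other calls of both genes in 20. The nucleotidase Nt5c2 rose on TDD in SPF mice from 10.4 ± 1.04 to 15.0 ± 1.27 CPM (q = 0.000362) and fell with ABX on TDD (-0.37, q = 0.00671, edgeR). The aldehyde oxidase Aox1, which oxidises N-methylnicotinamide, the product of Nnmt, fell with ABX on TDD from 1.94 ± 0.437 to 1.15 ± 0.129 CPM (q = 0.0256, edgeR), a call held in 16 of those 20 fits. The last gene to pass was Slc12a8, a proposed nicotinamide mononucleotide transporter, with ABX on CD (q = 0.0427, edgeR; 10 of 20 fits).

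**Figure D4:**
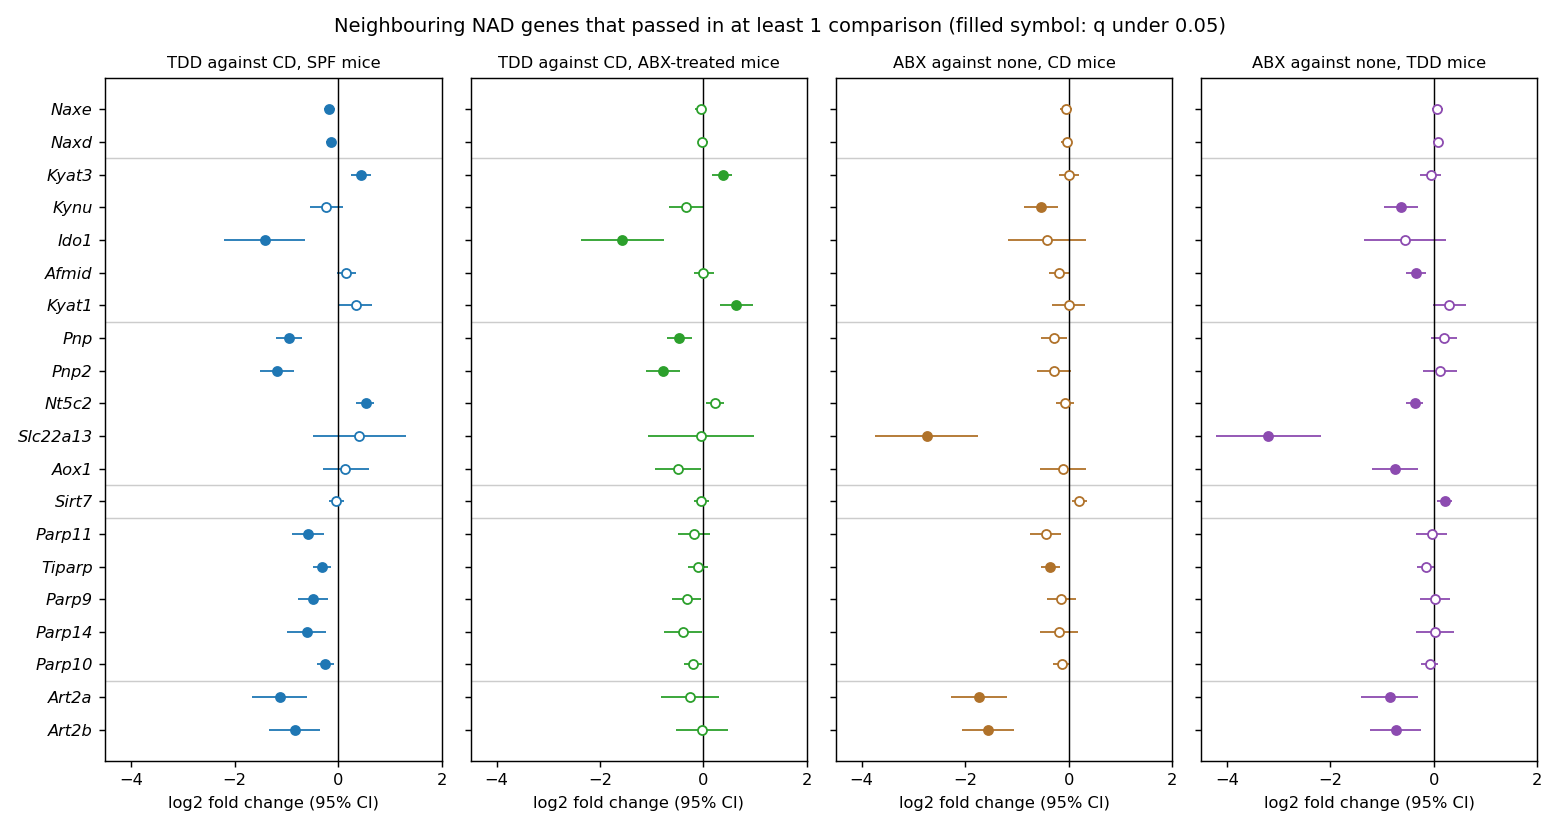
Log2 fold change with 95% confidence interval in the 4 comparisons for genes of the 6 neighbouring lists, up to 5 per list and separated by grey lines; filled symbols have q under 0.05. Slc22a13 lies at -2.74 and -3.2 in the ABX comparisons, and Ido1, Pnp and Pnp2 lie left of 0 with filled symbols in both diet comparisons.

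NAD consumers were tested as well. Of 16 PARP family genes, 5 fell on TDD in SPF mice and 0 rose: Parp11, Tiparp, Parp9, Parp14 and Parp10, with log2 fold changes from -0.61 to -0.25 (q from 0.0114 to 0.042, edgeR). Over all genes 7.71% fell and 6.65% rose in this comparison. Their calls held in 20, 19, 16, 13 and 11 of the 20 fits that left out a mouse, in that order. All but Tiparp lost the call when CD and TDD mice were fitted alone, and Parp14 also with limma-voom. The median of the list was -0.08, against 0.01 over all genes. The CD and TDD mice did not overlap for 0 of the 16 genes, against 9.58% of all genes. CD mouse 2 was below every TDD mouse for Parp9 (75.9 CPM) and Parp14 (123.5 CPM). In ABX-treated mice 0 of the 16 passed with edgeR, 3 had an unadjusted p under 0.05, and Parp14 changed by -0.40 (q = 0.291). Tiparp, a known target of AhR, also fell with ABX on CD (-0.35, q = 0.0119, edgeR). With ABX on TDD, Parp8 passed as well (q = 0.0477, edgeR; 4 of 20 fits). Of 7 sirtuins, which are NAD-dependent deacylases, Sirt7 passed with ABX on TDD (0.21, q = 0.0424, in 11 of 20 fits), beside 0.21 on CD (q = 0.0506, edgeR), and no other sirtuin passed a comparison.

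Of 6 other NAD glycohydrolases and NAD-dependent ribosyltransferases, Art2a and Art2b, genes of a family of T cell surface enzymes, passed in 3 comparisons. Art2b fell on TDD from 5.48 ± 1.25 to 3.05 ± 0.97 CPM (q = 0.0205), with ABX on CD to 1.86 ± 0.278 CPM (q = 0.000555), and on TDD to 1.83 ± 0.534 CPM (q = 0.0403, SD, n = 5, edgeR). Art2a fell in the same 3 comparisons, with log2 fold changes of -1.13, -1.73 and -0.85 (q = 0.00543, 0.000451 and 0.0362, edgeR). They are close paralogs, and their reads could have been split. The calls on TDD with ABX held in 13 (Art2a) and 9 (Art2b) of the 20 fits that left out a mouse. All 3 calls of Art2a, which had at most 2.13 CPM in any mouse, were lost when TPM were tested with limma. The T cell marker levels above moved in the same direction in the ABX comparisons. With TDD in SPF mice all 8 T cell markers also had log2 fold changes below 0, with a median of -0.52, but 0 passed (edgeR). Of 8 genes of further synthesis and repair, Naxe and Naxd, which repair hydrated NADH and NADPH, fell slightly on TDD in SPF mice (-0.17, q = 0.0408, and -0.14, q = 0.0498, edgeR), in 12 and 11 of the 20 fits.

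Transcript estimates show which isoforms the gene values rest on. Cd38 came almost wholly from the coding transcript Cd38-201, with 99.6% of the TPM of the gene, and Qprt-201 carried 89.7%, Nampt-201 80.5% and Naprt-201 76.4%. For Nmnat3 and Nmrk1 the leading coding transcripts Nmnat3-201 and Nmrk1-203 held 70.2% and 64.3%. Nmnat1 was divided between the coding transcripts Nmnat1-203 (49.5%) and Nmnat1-201 (43.9%). The coding transcript Nadsyn1-201 held only 35.3% of its gene, followed by a transcript marked for nonsense-mediated decay, Nadsyn1-207 (20.4%), and a retained intron, Nadsyn1-204 (14.5%). Nnmt-201 held 62.9%.

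For Nadk the coding transcripts Nadk-203 and Nadk-201 held 55.5% and 27.4%. The share of Nadk-203 was 50.2% ± 9.53 in TDD mice and 59.9% ± 2.6 in TDD+ABX mice, and that of Nadk-201 was 33.7% ± 12.5 and 22.7% ± 4.16 (SD, n = 5). These shares overlapped, with 38.9% to 60.1% and 56.7% to 63.0% for Nadk-203. In the same groups Nadk-203 rose from 34.6 ± 7.83 to 55.6 ± 4.18 TPM while Nadk-201 was at 22.9 ± 7.84 and 21.0 ± 3.85 TPM, as a description with no test.

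The genes with the most similar profiles over the 20 mice are given as a description, from Pearson correlations of log2(CPM + 1) among all genes tested. All points share library, depth and group differences, so the correlation of deviations from the group means is given in parentheses. Nampt was closest to Plekhh1 at 0.905 (0.718), Arl14 at 0.885 (0.625) and Pank3, a pantothenate kinase of coenzyme A synthesis, at 0.881 (0.707). Nmrk1 was closest to the phosphate transporter Slc20a1 at 0.869 (0.655), Gnb5 at 0.869 (0.615) and the clock repressor Bhlhe41 at 0.868 (0.753). Cd38 was closest to Glipr2 at 0.914 (0.683), Ggact at 0.897 (0.566) and Tnfrsf11a, the receptor RANK, at 0.896 (0.456).

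Nmnat3 was closest to Gpr157 at 0.919 (0.75), Ap1ar at 0.912 (0.763) and Vwce at 0.897 (0.662). Nadk was closest to the peroxisomal transporter Abcd3 at 0.942 (0.843), the glyoxalase Hagh at 0.923 (0.805) and Ywhah at 0.916 (0.683). Qprt was closest to Dusp22 at 0.859 (0.69), Pear1 at 0.839 (0.597) and the endothelial marker Pecam1 at 0.837 (0.635). Among the 10 genes themselves, Naprt and Nadsyn1, both of the nicotinic acid route, had 0.74 (0.79), Nmnat1 and Nmnat3 had 0.45 (0.68), Nampt and Cd38 had -0.80 (-0.32), and Qprt and Nadk had -0.80 (-0.44).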

How the data were processed

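Poly-A RNA of 1 ileum sample per mouse was sequenced on an Illumina NovaSeq. Reads were pseudoaligned to GRCm38 transcripts by the authors with kallisto 0.44.0, as their processing notes and methods state. The estimated counts deposited per gene and per transcript were not normalized. The deposited TPM per transcript are scaled by kallisto to transcript length and library total. Strand handling is not given in the sources used here. Of 113193 transcripts, 98.38% matched a GENCODE M21 gene, from which loci were taken, and TPM were summed per gene.

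Gene counts were rounded, scaled by TMM and tested with edgeR 4.0.16 (robust quasi-likelihood test, R 4.3.3) over the 16306 genes that reached 0.5 CPM in 1 or more of the 20 mice. The 4 groups of 5 stood in 1 fit, with contrasts for 2 diet effects, 2 ABX effects and their interaction. Genes passed at a Benjamini-Hochberg q under 0.05. The study states this q, 0.5 CPM and a fold change of 2 in iDEP but no test. The fold change limit was kept as an alternative because 10 enzymes with small changes were followed. Standard errors and 95% intervals come from that fit, which was tested on simulated counts.

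All 20 mice were used, and totals were 36676963 to 58662617 counts, so that a gene at 0.5 CPM rests on few reads and intervals cover counting error and the spread between mice together. No column lay outside the series. Alternatives were RLE and upper-quartile scaling, 2 other filters, DESeq2 1.42.0, limma-voom and limma 3.58.1 on log2(TPM + 1) or log2(TPM + 0.1), a replicate block, fits of the compared groups alone, the fold change limit and leaving out each mouse. The 10 genes, the pathway lists and the marker lists were chosen with earlier results of these data known. All 10 are described, with every mouse for those that passed. Up to 5 genes per pathway list were named by smallest q, the 3 most correlated genes per member that passed, and up to 3 transcripts per gene by mean TPM. Promoter sequences are from RefSeq (GRCm38.p6) and were searched with Python 3.11.15.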

Additional observations from a re-analysis of the deposited data

Results flagged for a closer look

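Within each group of 5 mice the highest and lowest CPM were set against the others by Dixon's criterion (gap over range above 0.71). Of 40 groups examined 3 had a mouse past this value, as chance gives in about 1 in 20 groups. TDD mouse 5 was high for Nmrk1 at 7.34 CPM, where the other TDD mice had 5.84 to 6.28 CPM. TDD mouse 1 was low for Nadk at 141.3 CPM, where the others had 147.9 to 150.5 CPM. TDD+ABX mouse 4 was low for Nadk at 166.7 CPM, where the others had 188.5 to 190.3 CPM. Leaving out TDD mouse 5 ended the call of Nmrk1 in SPF mice (q = 0.0663, edgeR), whereas the call of Nadk with ABX on TDD held without either of the other mice.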

How the results depend on the processing

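With the fold change limit of 2 the number of the 10 genes called was 0 in place of 3 in SPF mice on TDD, in CD mice with ABX and in TDD mice with ABX, and 5 in place of 22 of the other NAD genes. DESeq2 called 1 of the 10, Nmrk1, with the diet in ABX-treated mice, in place of 0. Leaving out each mouse in turn gave 2 to 5 of the 10 genes for the diet in SPF mice, 2 to 3 for ABX on either diet, 0 to 0 for the diet in ABX-treated mice and for the interaction, and 13 to 25 of the other NAD genes (fewest without TDD mouse 3, most without CD mouse 2; these alternatives for the other genes were chosen after seeing the data). Over all genes the same fits gave 1576 to 3098 calls for the diet in SPF mice, 102 to 486 in ABX-treated mice, 1436 to 2521 for ABX on CD, 1367 to 3154 for ABX on TDD and 0 to 29 for the interaction, so that the background shares moved as well. The 268 calls for the diet in ABX-treated mice moved by over 1.5 times without CD mouse 2 (486), without CD+ABX mouse 1, 3 or 4 and without any TDD+ABX mouse (102 to 172), and the 2505 for ABX on TDD without TDD+ABX mouse 1, 2 or 3 (1367 to 1536). The cause was not tested. The fold changes of the 10 genes that had an unadjusted p under 0.05 kept their direction under every alternative run, and 435 of 480 of those values stayed on the same side of the threshold.

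Over all genes, the diet calls ran from 1389 (compared groups alone) to 2754 (DESeq2) in SPF mice, in place of 2342, and from 113 (replicate block) to 613 (DESeq2) in ABX-treated mice, in place of 268. The interaction ran from 0 (RLE scaling) to 134 (DESeq2), in place of 6. No pairing of the mice by replicate number was seen, which does not exclude shared cages or batches. Of 30 same-numbered pairs of mice 6 had deviations correlated over 0.1, and 4 of 20 mice correlated best with their own number. The median correlation was -0.027 for the same number and -0.005 for other numbers. With the number as a replicate block, 3, 0, 2, 3 and 0 of the 10 genes passed in the 5 comparisons, where Nadk on CD was the call lost (q = 0.0767, edgeR), and 16 of the other NAD genes. Qprt and Nnmt, with 7 to 55 counts per mouse, are limited by depth: the log2 fold change of Qprt with ABX on TDD was -0.21 on log2(TPM + 1), where the pseudocount exceeds the level of the gene.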
